A study of Mus musculus with 66 samples.

Results

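The healthy rectum was compared with the healthy mid-colon of the same mice, by bulk RNA sequencing of dissected mucosa. The comparison used 8 of the 66 samples of the series, which were every mid-colon and every rectum section of the mice killed at day 0, paired by the mouse number that the labels give. These 4 mice were C57Bl/6 animals bought at 6 weeks of age and had no injury. The anus of the same 4 mice is given beside the rectum as the next section down the gut, with no test. The other 15 mice, 3 each at day 3, 6, 9, 14 and 20, were put on 3% DSS (dextran sulfate sodium, which damages the lining of the colon). The course ran for 6 days from day 0, so the mice of day 3 were taken before its end. These 15 mice share no sample with the healthy mice. In all sections the mucosal surface was cut out and the muscle layer removed. Each day 0 group is therefore 4 animals of 1 strain, and no section is a pure cell type.

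The mid-colon and the rectum are lined by the same kind of columnar epithelium, made of absorptive colonocytes that take up sodium, chloride, water and short-chain fatty acids, goblet cells that secrete mucus, and scattered hormone cells. The distal end is known for sodium uptake through the epithelial sodium channel under aldosterone, while electroneutral exchange of sodium for protons dominates further up. The rectum ends at the anorectal junction, where the columnar lining gives way to a stratified squamous epithelium rich in keratins.

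Levels below are scaled TPM, which is TPM (a length-adjusted share of a library) after division by a trimmed-mean factor per library. Differences are rectum minus mid-colon on the log2(scaled TPM + 1) scale within mice, so that 1 is a 2-fold change for an abundant gene and the change of a scarce gene is understated. A gene is called where its adjusted p, from limma with Benjamini-Hochberg adjustment over all 12037 genes tested, was under 0.05. The read depth is unknown because the table holds TPM. Over the 8 samples, 11268 to 12328 genes had at least 1 TPM, mitochondrial genes held 16.4% to 20.9% of the TPM, and the 10 most abundant genes held 23.3% to 31.3%. The mid-colon of mouse 4 stood apart, with the fewest genes, the largest share in the 10 most abundant genes, and a scaling factor of 0.740 against 0.969 to 1.04 in the other 3 mid-colon samples and 1.05 to 1.12 in rectum. The defining markers were those of the labelled tissue. The summed level of 6 colonocyte markers was 7251 to 12314 in mid-colon, 5810.4 to 7632 in rectum and 659.7 to 1495 in anus.

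The mid-colon and the rectum differed at a small number of genes. Of the genes tested, 163 were called (1.35%), 66 higher in rectum (0.548%) and 97 lower (0.806%). The 4 rectum samples did not overlap with the 4 mid-colon samples at 1394 genes (11.6%). Among the called genes 36 differed by at least 1 on the log2(scaled TPM + 1) scale, 13 higher and 23 lower. The genes that were lower included transporters, brush-border enzymes and secretory products of the epithelium, and those that were higher included the antigen-presenting class II genes, matrix genes and 3 genes that were far more abundant in the anus. Without the trimmed-mean scaling the median over all genes moved from 0.00709 to 0.206, and the split turned to 294 higher and 55 lower of 349 (84.2% higher against 40.5% with scaling). All 163 calls kept their direction there and 110 were called. The calls rested on having all 4 mice. Only 1 gene was called without mouse 1, 18 without mouse 2, 2 without mouse 3 and 38 without mouse 4. None of the 163 calls passed in all 4 of these fits. All 163 kept their direction in each, but they were chosen from these same mice, so this adds no support. Without the mouse as a block, 104 genes were called, 84 of them among the 163.

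**Figure D1:**
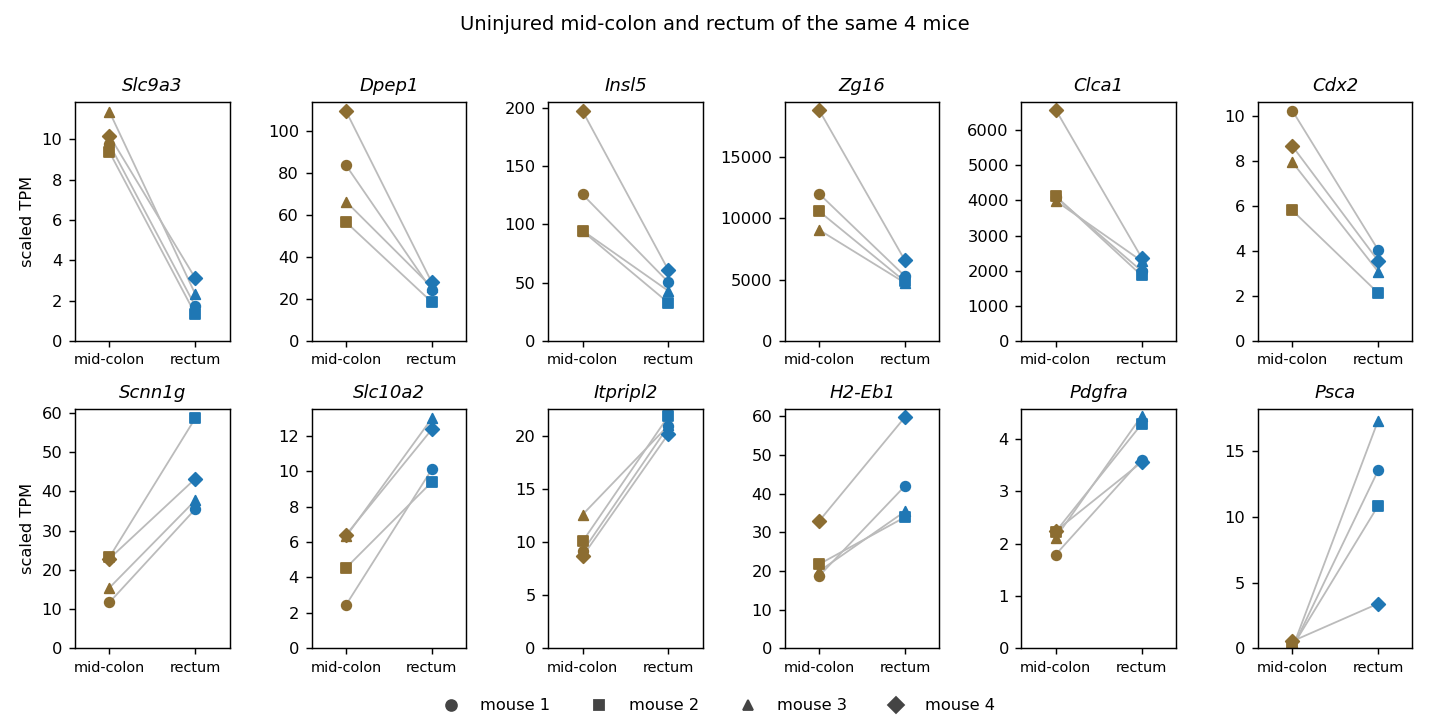
Scaled TPM (vertical, linear axes that start at 0) of 12 genes named in the text in the 4 healthy mice, with 1 symbol per mouse and a line joining its mid-colon and rectum. For Slc9a3 the 4 rectum samples sit between 1.33 and 3.12, all below the 4 mid-colon samples, and for Scnn1g they sit between 35.5 and 58.6, all above them.

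A sodium-proton exchanger gene was lower in rectum, and the gene of 1 sodium channel subunit was higher. Slc9a3 (chr13:74121457-74169442 of GRCm38, plus strand) encodes NHE3, the exchanger that takes up sodium for protons. Its level was 9.76, 9.37, 11.4 and 10.2 in the mid-colon of mice 1 to 4 and 1.73, 1.33, 2.33 and 3.12 in their rectum. Every rectum was below every mid-colon, and the anus held at most 0.0433. The difference was -1.87 ± 0.13 (SE, n = 4 mice, limma, adjusted p = 0.00907), the largest fall among the named genes. Scnn1g (chr7:121734479-121768475, plus strand) encodes the gamma subunit of the epithelial sodium channel. It measured 11.7, 23.2, 15.4 and 22.9 in mid-colon and 35.5, 58.6, 37.7 and 43.2 in rectum, a difference of 1.23 ± 0.11 (SE, n = 4 mice, limma, adjusted p = 0.0141). All 4 rectum samples lay above all 4 mid-colon samples, and the anus held 8.31 to 24.8.

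The related genes of both routes, added after their values were seen, were not called. Scnn1b, the beta subunit, was 18.1, 20.1, 14.9 and 20.2 in mid-colon and 23.6, 27.6, 23.1 and 27.4 in rectum, a difference of 0.46 (limma, adjusted p = 0.0512) with no overlap. On TPM as deposited, where the median over all genes was 0.206, Scnn1b was called at 0.68 (limma, adjusted p = 0.0272). Scnn1a, the alpha subunit, was the most abundant of the 3 at 141, 137, 137 and 102 in mid-colon and 120.2, 119, 127 and 104 in rectum. Its groups overlapped, and its difference of -0.13 (limma, adjusted p = 0.374) became 0.0999 on TPM as deposited. Slc9a2, another apical sodium-proton exchanger, was 115, 115, 125 and 114 in mid-colon and 93.7, 89.7, 88.3 and 84.7 in rectum, a difference of -0.39 (limma, adjusted p = 0.0569) with no overlap.

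Of the 29 tested genes of salt and water transport (32 listed), 1 was higher in rectum and 3 lower, and the median difference was -0.256, against 0.00709 over all genes tested. Aqp4, a basolateral water channel, was the next largest fall, from 18.4, 19, 15.5 and 21.8 in mid-colon to 6.6, 6.2, 6.05 and 12.4 in rectum, a difference of -1.21 ± 0.13 (SE, n = 4 mice, limma, adjusted p = 0.0201). The rectum of mouse 4 was higher than the other 3 but below every mid-colon. Atp12a, the catalytic subunit of the colonic proton-potassium pump, differed by -0.56 (limma, adjusted p = 0.0343). Aqp8, a water channel of surface colonocytes, missed the threshold at 1512, 1739, 1542 and 2254 in mid-colon and 869.8, 997, 1067 and 789.7 in rectum, a difference of -0.91 (limma, adjusted p = 0.0559), although its groups did not overlap. Slc26a3, the main chloride-bicarbonate exchanger, differed by -0.56 (limma, adjusted p = 0.0653). None of the 5 tested carbonic anhydrases was called, where 1.35% of all genes tested were. Among the abundant members Car4 differed by -0.81 (limma, adjusted p = 0.0638) and Car1 by -0.28 (limma, adjusted p = 0.34). The salt and water list had 3 calls in each direction and a median of -0.0274 on TPM as deposited.

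Transport of organic solutes and ions was lower in rectum at 6 of 25 tested genes (29 listed) and higher at 1, with a median of -0.23. Slc30a10, a manganese exporter, had levels of 8.49, 5.03, 9.71 and 9.97 in mid-colon and 2.19, 1.54, 2.36 and 2.43 in rectum and differed by -1.54 ± 0.11 (SE, n = 4 mice, limma, adjusted p = 0.00907). Slc20a1, a sodium-phosphate cotransporter, was abundant, at 403, 333, 448 and 515 in mid-colon and 209, 179.7, 211 and 229 in rectum, and differed by -1.02 (limma, adjusted p = 0.0092). For both genes the groups were well apart in all 4 mice. Slc37a2, a sugar phosphate exchanger of the endoplasmic reticulum, fell by 0.88 on the log2 scale (limma, adjusted p = 0.0291), and Slc13a2, a sodium-dicarboxylate cotransporter, fell by 0.83 (limma, adjusted p = 0.0291). Abcb1a, the drug efflux pump P-glycoprotein, differed by -0.53 (limma, adjusted p = 0.0401).

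The bile acid transporters moved in opposite directions. Slc51b, a subunit of the basolateral bile acid exporter, was lower in rectum, with a difference of -0.56 (limma, adjusted p = 0.0313). Slc10a2 (chr8:5083219-5105351, minus strand), the apical sodium-bile acid transporter best known from the ileum, was higher, at 2.45, 4.54, 6.31 and 6.4 in mid-colon and 10.1, 9.38, 13 and 12.4 in rectum, a difference of 1.09 ± 0.16 (SE, n = 4 mice, limma, adjusted p = 0.0343). Every rectum lay above every mid-colon, with mouse 1 showing the widest gap. The list of organic solute transporters had 3 lower calls, 1 higher call and a median of -0.00252 on TPM as deposited.

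The 250 bases before the RefSeq start of 3 transporter genes are shown because these genes moved in opposite directions while Cdx2, an intestinal transcription factor, was also lower in rectum. The sequences are RefSeq's on GRCm38.p6, each written 5′ to 3′ on the strand of its gene, and capitals mark matches to the Cdx motif TTTATNG or, for the other strand, CNATAAA. The Slc9a3 window is chr13:74121163-74121412 on the plus strand, the Scnn1g window chr7:121734229-121734478 on the plus strand, and the Slc10a2 window chr8:5105288-5105537 on the minus strand.
Slc9a3: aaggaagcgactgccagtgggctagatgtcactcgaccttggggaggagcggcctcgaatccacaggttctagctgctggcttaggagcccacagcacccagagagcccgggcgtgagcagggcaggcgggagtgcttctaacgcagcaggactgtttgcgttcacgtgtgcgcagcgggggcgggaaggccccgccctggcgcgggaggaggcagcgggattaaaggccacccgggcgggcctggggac
Scnn1g: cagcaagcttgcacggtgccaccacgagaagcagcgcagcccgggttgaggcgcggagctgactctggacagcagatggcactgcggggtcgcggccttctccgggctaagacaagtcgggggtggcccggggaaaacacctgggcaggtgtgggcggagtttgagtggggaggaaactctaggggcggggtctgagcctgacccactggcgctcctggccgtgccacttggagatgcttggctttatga
Slc10a2: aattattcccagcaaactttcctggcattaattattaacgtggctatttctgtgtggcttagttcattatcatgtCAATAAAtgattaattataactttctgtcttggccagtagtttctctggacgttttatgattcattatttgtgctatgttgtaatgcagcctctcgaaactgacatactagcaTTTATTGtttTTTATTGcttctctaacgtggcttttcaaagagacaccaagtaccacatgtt
The letters of the motif occur in neither the Slc9a3 nor the Scnn1g window, and 3 times in the Slc10a2 window, at 175, 62 and 52 bases before the start. Of 8970 tested genes with a window, 689 held the motif (7.68%). Among genes called lower it was held by 8 of 71 (11.3%), and among genes called higher by 5 of 49 (10.2%). The Hnf4 motif CAAAGTCCA, searched on both strands, was in 38 of 8970 (0.424%), in 1 of the 71 called lower (1.41%) and in 0 of the 49 called higher. A match is a description of the letters only.

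Genes of the absorptive colonocyte were lower in rectum at 6 of 23 tested (24 listed) and higher at 1, with a median of -0.404. Dpep1, a membrane dipeptidase, measured 83.7, 56.6, 66.4 and 109.5 in mid-colon and 24.1, 18.5, 25.6 and 27.9 in rectum, and the groups did not overlap. It differed by -1.65 ± 0.11 (SE, n = 4 mice, limma, adjusted p = 0.00907). Ggt1, a gamma-glutamyltransferase that also cleaves glutathione conjugates at the brush border, measured 9.28, 4.86, 15.9 and 12.5 in mid-colon and 2.47, 1.74, 5.16 and 4.06 in rectum. Its groups overlapped between mice, since the rectum of mouse 3 was above the mid-colon of mouse 2, but each rectum was below its own mid-colon, and the difference was -1.38 ± 0.11 (SE, n = 4 mice, limma, adjusted p = 0.00907). Saa1, an acute-phase protein also made by colonic epithelium, was 2366, 2802, 2909 and 7266 in mid-colon and 1332, 1625, 1358 and 2725 in rectum, where mouse 4 was the highest in both sections. Its difference was -1.03 (limma, adjusted p = 0.031), and its near-identical relatives make the split of its reads uncertain.

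Among the remaining colonocyte genes, Mep1b, a meprin metalloprotease subunit, differed by -0.56 (limma, adjusted p = 0.0341). Ms4a10 was the member that was higher in rectum, at 14.8, 22.9, 18.6 and 17.3 in mid-colon and 26.8, 31.8, 30.7 and 26.9 in rectum, a difference of 0.64 (limma, adjusted p = 0.0313). Other marker genes of mature colonocytes had smaller or uncalled differences. Krt20, a keratin of mature surface cells, was 885, 907, 822 and 959 in mid-colon and 643, 614, 639 and 559 in rectum, a difference of -0.54 (limma, adjusted p = 0.0559), with no overlap. Lypd8, a secreted protein that keeps bacteria off the epithelium, held 26195 to 40348 in mid-colon and 22779.5 to 26965 in rectum, a difference of -0.26 (limma, adjusted p = 0.435). Guca2a, the hormone guanylin, differed by -0.61 (limma, adjusted p = 0.0817). The colonocyte list had 2 higher and 3 lower calls and a median of -0.175 on TPM as deposited.

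**Figure D2:**
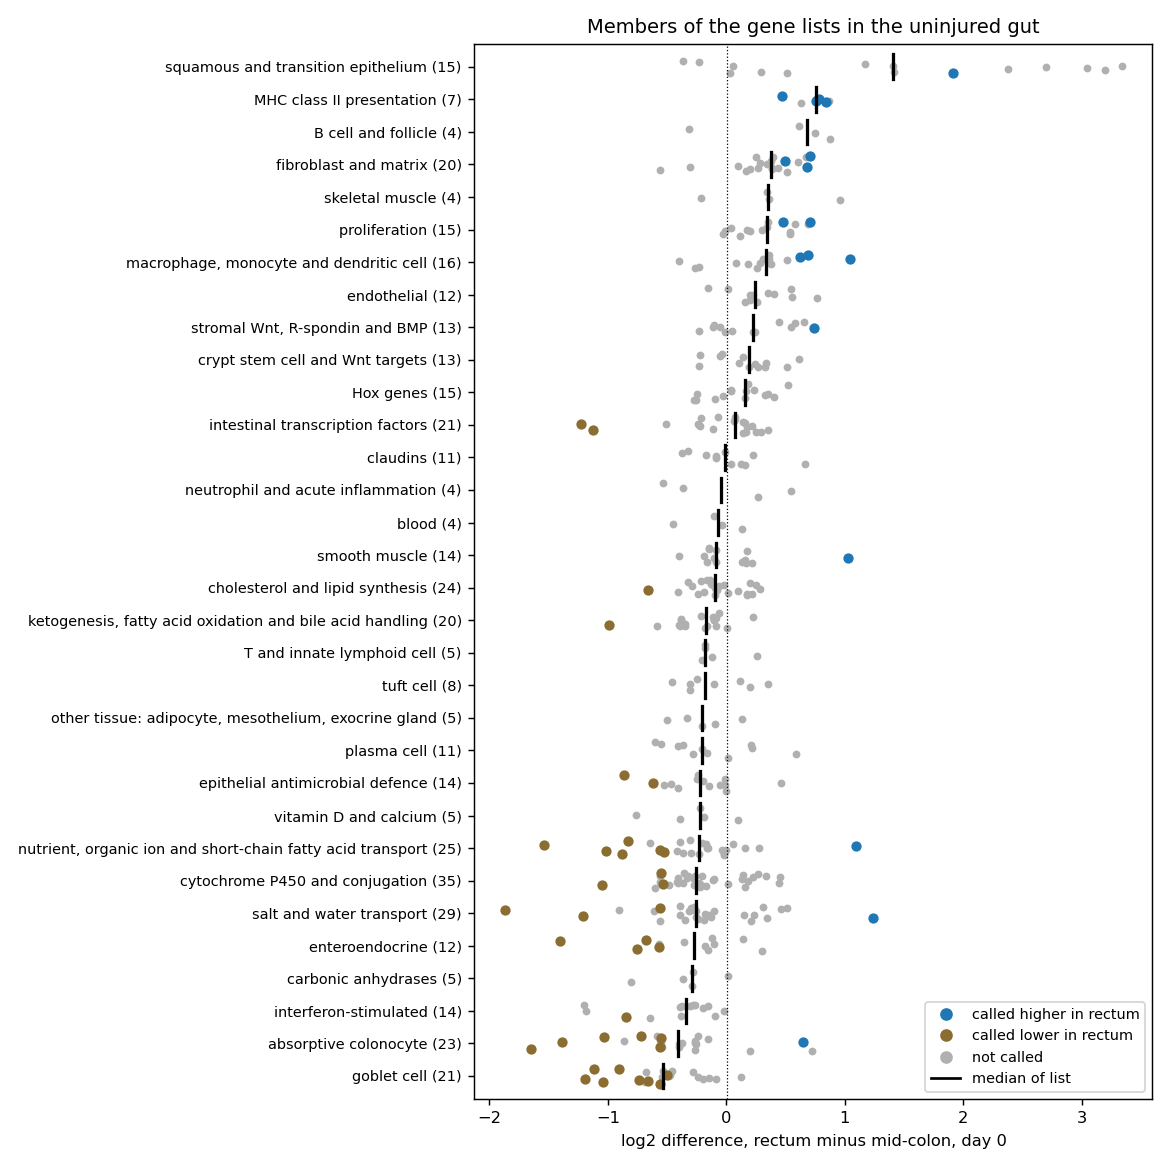
Log2 difference, rectum minus mid-colon, in the healthy mice for each tested member of the gene lists that had 4 or more tested members (number tested in brackets), with 1 point per gene, called genes in blue (higher) or brown (lower), and a bar at the list's median. Goblet cell genes sit mainly below 0 (median -0.535) and class II genes above it (median 0.757), against a median of 0.00709 over all genes tested.

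Several major products of goblet cells were lower in rectum. Of 21 tested genes (22 listed), 8 were called lower and 0 higher, 20 had a negative difference, and the median was -0.535. Zg16 (chr7:127050156-127087328, minus strand), a mucus lectin that binds gram-positive bacteria, was among the most abundant transcripts, at 11992, 10564, 9049 and 18815 in mid-colon and 5276, 4842, 4727 and 6556 in rectum. Each rectum was below every mid-colon, and the anus held 163 to 458. The difference was -1.19 ± 0.15 (SE, n = 4 mice, limma, adjusted p = 0.0291). Clca1, a mucus metalloprotease, was 4102, 4126, 3991 and 6584 in mid-colon and 1991, 1863, 2276 and 2374 in rectum and differed by -1.12 ± 0.14 (SE, n = 4 mice, limma, adjusted p = 0.0288). Klk1, a tissue kallikrein with many close relatives in its gene cluster, differed by -1.04 (limma, adjusted p = 0.0291). Tff3, the trefoil peptide of mucus, was 5485, 5186, 3869 and 7637 in mid-colon and 2987, 2621, 2619 and 3357 in rectum and differed by -0.90 (limma, adjusted p = 0.0401).

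The other called goblet cell genes were Nxpe4 at -0.73 (limma, adjusted p = 0.0237), Fer1l6 at -0.66 (limma, adjusted p = 0.0344), Sytl2, a vesicle-docking protein, at -0.56 (limma, adjusted p = 0.0313), and Reg4, a secreted lectin, at -0.50 (limma, adjusted p = 0.0398). Muc2, the gel-forming mucin itself, was 774, 899, 773 and 639 in mid-colon and 531, 485, 578 and 601 in rectum, a difference of -0.48 (limma, adjusted p = 0.125). No rectum reached any mid-colon sample, but the gap in mouse 4 was small, with 639 against 601. The summed level of the goblet cell list was 29128, 27518, 23859 and 44429 in mid-colon and 15059.9, 13771, 14276 and 18252 in rectum, and mouse 4 had the largest sum in both sections. In bulk tissue, fewer cells of a type and less RNA per cell cannot be told apart. On TPM as deposited 5 of the 8 were called, and none of the 8 was called without mouse 1, 2 or 3. Without mouse 4, 2 of the 8 were called (Zg16 and Klk1) and 1 other member.

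Some products of hormone cells were also lower. Of 12 tested enteroendocrine genes (21 listed), 4 were lower in rectum and 0 higher, with a median of -0.27. Insl5 (chr4:103017872-103026842, minus strand), an insulin-like hormone of distal colonic L cells, was 126, 94, 94.5 and 197 in mid-colon and 50.4, 32.6, 42.8 and 60.6 in rectum. All 4 rectum samples were below all mid-colon samples, and the difference was -1.40 ± 0.10 (SE, n = 4 mice, limma, adjusted p = 0.00907). Tph1, which makes serotonin in enterochromaffin cells, was 4.36, 3.75, 4.78 and 4.4 in mid-colon and 2.24, 1.52, 2.06 and 2.88 in rectum, a difference of -0.76 (limma, adjusted p = 0.0403). Chgb, a granule protein, was 19.2, 15, 19.2 and 23 in mid-colon and 13.3, 9.34, 9.31 and 14.8 in rectum, a difference of -0.68 (limma, adjusted p = 0.0389), and Cpe, a prohormone-processing carboxypeptidase that was more abundant in the anus (134 to 269), differed by -0.57 (limma, adjusted p = 0.0405). Pyy, another L cell hormone, differed by -0.57 (limma, adjusted p = 0.092). With deposited TPM 1 member was called lower, and the median was -0.071.

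Among 21 tested intestinal transcription factors (23 listed) 2 were lower in rectum and 0 higher, with a median of 0.0714. Cdx2 (chr5:147300805-147307270, minus strand), the homeobox factor that specifies intestinal epithelium, was 10.2, 5.8, 7.94 and 8.66 in mid-colon and 4.05, 2.13, 3.08 and 3.56 in rectum. Every rectum lay below every mid-colon, with a difference of -1.12 ± 0.09 (SE, n = 4 mice, limma, adjusted p = 0.00907), and the anus held 0 to 0.0242. Ppara, a nuclear receptor that drives fatty acid oxidation genes, was 4.9, 3.11, 3.82 and 2.33 in mid-colon and 1.16, 0.714, 1.13 and 0.654 in rectum, a difference of -1.23 ± 0.12 (SE, n = 4 mice, limma, adjusted p = 0.0161). Its groups did not overlap. Hnf4a, a nuclear receptor of the enterocyte program, was 245, 239, 262 and 202 in mid-colon and 220.4, 200.1, 208 and 187 in rectum, a difference of -0.21 (limma, adjusted p = 0.182) that turned to 0.0172 on TPM as deposited. Foxd2, a forkhead factor outside the lists, was 6.62, 5.92, 5.45 and 4.09 in mid-colon and 2.72, 1.39, 2.09 and 1.95 in rectum, a difference of -1.10 ± 0.14 (SE, n = 4 mice, limma, adjusted p = 0.0291), again with no overlap.

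The Hox genes, which mark position along the body axis, did not pass the threshold. Of 39 listed, 15 were tested, 0 were called, and the median was 0.154. Among all genes tested 1.35% were called, so 0 of 15 is near that share. The nearest was Hoxa11, at 4.05, 3.83, 4.55 and 5.07 in mid-colon and 5.97, 6.55, 6.7 and 7.66 in rectum, a difference of 0.52 (limma, adjusted p = 0.0514). Hoxd13 (chr2:74668310-74671599, plus strand), a gene of the posterior end of its cluster, was 44.3, 47.5, 49.7 and 49.9 in mid-colon and 58.7, 60.2, 59.3 and 63.3 in rectum, a difference of 0.33 (limma, adjusted p = 0.0739). Neither gene's groups overlapped. On TPM as deposited, where the median over all genes was 0.206, both were called, at 0.72 (limma, adjusted p = 0.034) and 0.56 (limma, adjusted p = 0.039). In the 15 mice of days 3 to 20, Hoxa11 differed by -0.05 (limma, adjusted p = 0.693) and Hoxd13 by -0.01 (limma, adjusted p = 0.924). Of the 15 Hox genes tested in those mice, 5 were called lower and 0 higher. Hoxb13, the most abundant, was 209.8, 189.6, 188 and 168 in mid-colon, 192, 169, 183 and 161 in rectum and 51.9, 48.9, 24.5 and 76.3 in anus. Its difference was -0.10 (limma, adjusted p = 0.45), and 0.133 on TPM as deposited, with overlapping groups.

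Hoxa10, a more anterior member of its cluster, was lower in every rectum than in every mid-colon at -0.25 (limma, adjusted p = 0.132), and Hoxa13 differed by 0.04 (limma, adjusted p = 0.787). Hoxa9 and Hoxb9, at -0.03 (limma, adjusted p = 0.914) and 0.04 (limma, adjusted p = 0.823), changed sign with the settings. The other 8 tested Hox genes that are not described above differed by -0.27 (Hoxd12) to 0.40 (Hoxd9).

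**Figure D3:**
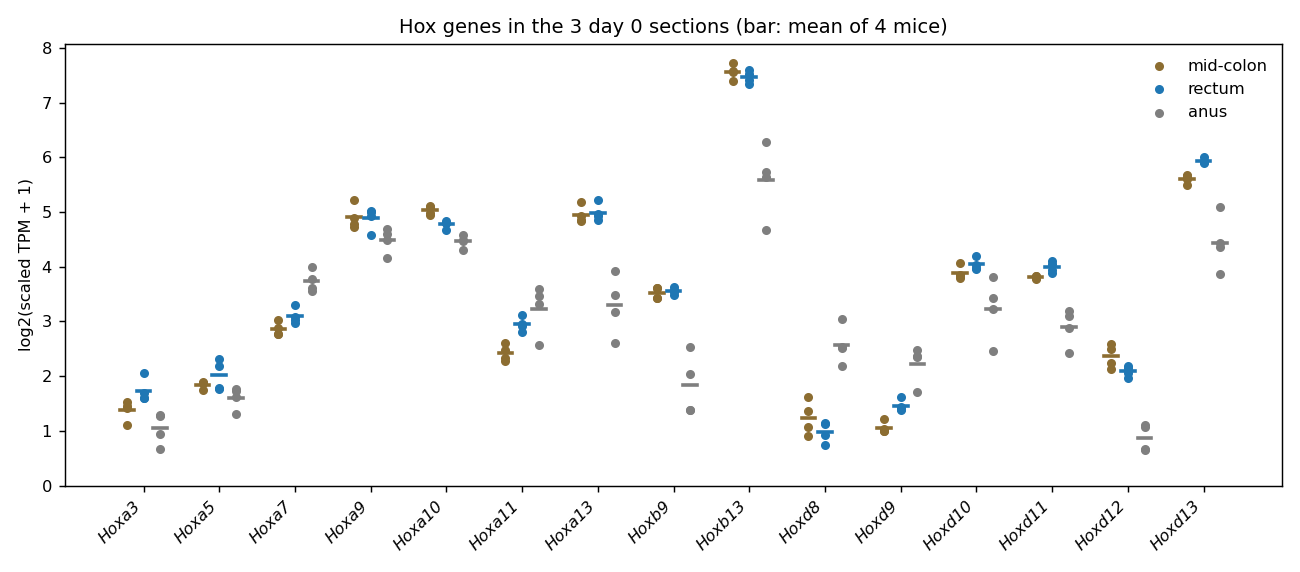
Level of the 15 tested Hox genes as log2(scaled TPM + 1) in mid-colon, rectum and anus of the 4 healthy mice, with 1 point per sample and a bar at the mean. In scaled TPM, Hoxb13 overlaps between mid-colon (168 to 210) and rectum (161 to 192) and is lower in anus (24.5 to 76.3), while Hoxd13 is slightly higher in rectum (58.7 to 63.3) than in mid-colon (44.3 to 49.9).

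The largest rises in rectum were in genes that the anus held at far higher levels. Psca (chr15:74714839-74717069, plus strand), a surface protein of stratified and urogenital epithelia, was 0, 0.127, 0 and 0.545 in the mid-colon of mice 1 to 4, 13.5, 10.8, 17.3 and 3.4 in their rectum and 3114, 1653, 1199 and 946 in their anus. Rectum and mid-colon did not overlap, and mouse 4 had the lowest rectum. The difference was 3.24 ± 0.41 (SE, n = 4 mice, limma, adjusted p = 0.0291). Ppbp, a chemokine precursor known from platelets, was 0.152, 0.546, 0.331 and 0.587 in mid-colon, 8.38, 8.89, 10.9 and 2.38 in rectum and 1806, 806, 738 and 589 in anus, a difference of 2.49 ± 0.34 (SE, n = 4 mice, limma, adjusted p = 0.0313). Ly6d, a surface protein of keratinocytes and of B cell precursors, was 1.2, 1.44, 0.871 and 4.81 in mid-colon, 17.4, 6.05, 6.44 and 11.2 in rectum and 3648, 2371, 1521 and 1133 in anus, a difference of 1.91 ± 0.30 (SE, n = 4 mice, limma, adjusted p = 0.0415). All 3 had the same order of sections in every mouse.

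Keratins of squamous epithelium, from the cell type marker list, had differences that varied more between mice. Krt13 was 0.35, 1, 0.606 and 1.8 in mid-colon, 40.1, 17, 30.8 and 2.63 in rectum and 12701, 5153, 4896 and 2921 in anus, and its difference of 3.19 ± 0.68 (SE, n = 4 mice, limma, adjusted p = 0.0764) was not called. Krt4, its usual partner, measured 0.0323, 0.116, 0.117 and 0.834 in mid-colon and 23.6, 9.78, 17.4 and 1.23 in rectum, a difference of 3.04 (limma, adjusted p = 0.0764). The rectum of mouse 4 was the lowest for both. Without mouse 4, Krt13 was called at 4.16 (limma, adjusted p = 0.033) and Krt4 at 4.01 (limma, adjusted p = 0.0266). Neither was called in the fits without mouse 1, 2 or 3. Krt14, a basal-layer keratin, was 3.37, 4.23, 4.13 and 6.81 in mid-colon and 22.5, 10.8, 20.4 and 6.83 in rectum, a difference of 1.42 (limma, adjusted p = 0.112).

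Of 33 listed squamous and transition genes, 15 were tested, 1 was called higher (Ly6d) and 0 lower, with 13 positive and a median of 1.41. Ly6d was not called in any fit of 3 mice. On TPM as deposited, where 294 of all 12037 genes were called higher and 55 lower, 7 members were called, Ly6d among them. Without mouse 4, 6 members were called that were not called with all 4 mice. The whole list summed to 2746, 2619, 2810 and 3744 in mid-colon and 2965, 2843, 2398 and 2352 in rectum. That sum was higher in the rectum of 2 of the 4 mice. The summed level of 6 defining markers (Krt5, Krt14, Krt13, Krt4, Trp63 and Dsg3) was 3.81, 5.37, 5.07 and 10.6 in mid-colon, 95, 41, 77.3 and 11.3 in rectum and 20621, 12478, 11029.5 and 7951 in anus. Trp63 was listed at 0 in all 4 mid-colon samples and in the rectum of mouse 4. The 6 markers as a sum, like Psca and Ppbp, were lowest in the rectum of mouse 4, where the sum was close to that of its mid-colon. Ly6d had another order among the mice, with the rectum of mouse 4 second to that of mouse 1. The part of squamous cells in these results was not tested.

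Genes of MHC class II presentation, by which antigen is shown to helper T cells, were higher in rectum. Of 7 tested (10 listed), 4 were called higher and 0 lower, all 7 were positive, and the median was 0.757. H2-Eb1, a class II beta chain, was 18.7, 21.8, 19.9 and 32.9 in mid-colon and 42, 33.9, 35.4 and 59.8 in rectum, a difference of 0.84 ± 0.10 (SE, n = 4 mice, limma, adjusted p = 0.0266). Cd74, the invariant chain, was 34.8, 33.9, 39.2 and 51.8 in mid-colon and 69.6, 53.8, 57.3 and 102 in rectum, a difference of 0.78 ± 0.10 (SE, n = 4 mice, limma, adjusted p = 0.0291). Both genes were highest in the rectum of mouse 4, and each rectum was above every mid-colon. H2-Aa, a class II alpha chain, differed by 0.76 (limma, adjusted p = 0.0249) and H2-Ab1 by 0.47 (limma, adjusted p = 0.0352), and for these the mid-colon of mouse 4 lay above the lowest rectum samples. On TPM as deposited, where 294 of all 12037 genes were called higher and 55 lower, 5 members were called. In each fit of 3 mice and in the fit without the mouse block 0 were called.

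Macrophage genes rose in part. Of 16 tested (20 listed), 3 were higher and 0 lower, with 13 positive and a median of 0.333. Csf1r, the receptor that macrophages depend on, was 3.01, 3.01, 4.05 and 4.59 in mid-colon and 5.4, 6.56, 6.51 and 7.48 in rectum, a difference of 0.69 (limma, adjusted p = 0.037). Cd68, a lysosomal protein, was 4.39, 5.9, 6.05 and 6.67 in mid-colon and 7.52, 10.6, 10.5 and 8.99 in rectum, a difference of 0.62 (limma, adjusted p = 0.0427). Lyz1, a lysozyme gene best known from Paneth cells, was 4.2, 6.24, 5.01 and 5.54 in mid-colon and 10.9, 11, 11.8 and 13.7 in rectum, a difference of 1.05 ± 0.11 (SE, n = 4 mice, limma, adjusted p = 0.0181), and its close copy Lyz2 differed by 0.31 (limma, adjusted p = 0.198), so that the split of reads between the copies is uncertain. C1qa, a complement gene of tissue macrophages, differed by 0.36 (limma, adjusted p = 0.162).

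The defining markers of immune cells were uneven between mice. The sum of 4 B cell markers was 1.14, 1.67, 0.794 and 3.6 in mid-colon and 6.78, 1.51, 0.71 and 18.6 in rectum, so that the rectum was higher in mice 1 and 4 and lower in mice 2 and 3. The sum of 3 macrophage markers was 20.3, 25.6, 28.4 and 43.9 in mid-colon and 33.2, 37.3, 39.4 and 46.5 in rectum, where each rectum was above its own mid-colon. The part of either in the class II result was not tested. None of the 4 tested B cell, 11 plasma cell, 5 T cell or 4 neutrophil genes was called. Over all genes tested 1.35% were called, so few calls would be due in lists this small.

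Stromal genes were higher in rectum where they were called. Of 20 tested fibroblast and matrix genes (20 listed), 3 were higher and 0 lower, 18 were positive, and the median was 0.38. Pdgfra, a receptor of fibroblasts, was 1.79, 2.23, 2.11 and 2.24 in mid-colon and 3.6, 4.28, 4.43 and 3.55 in rectum, a difference of 0.68 (limma, adjusted p = 0.0403). Mmp2, a matrix metalloprotease, was 7.07, 7.53, 8.9 and 8.31 in mid-colon and 10.7, 15.1, 16.7 and 12.3 in rectum, a difference of 0.70 (limma, adjusted p = 0.037). Timp3, a metalloprotease inhibitor, differed by 0.50 (limma, adjusted p = 0.0481), and Col3a1, a fibrillar collagen, by 0.39 (limma, adjusted p = 0.201). For the 3 called genes no rectum fell below a mid-colon sample. On TPM as deposited, where 294 of all 12037 genes were called higher and 55 lower, 11 members were called. In each fit of 3 mice 0 were called, and without the mouse block 1.

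Signals that stromal cells send to the crypt were higher at 1 of 13 tested genes (23 listed), with a median of 0.228. Bmp5, a bone morphogenetic protein, was 1.9, 2, 2.36 and 2.33 in mid-colon and 3.35, 4.3, 4.79 and 4.61 in rectum, a difference of 0.74 (limma, adjusted p = 0.0313). Hhip, a decoy receptor for hedgehog ligands that is made by smooth muscle and stromal cells, was 1.8, 2.4, 2.24 and 2.27 in mid-colon and 4.41, 4.94, 6.96 and 5.83 in rectum, a difference of 1.03 ± 0.12 (SE, n = 4 mice, limma, adjusted p = 0.0237). The groups of both genes were apart in all mice. Hhip was the called member of the 14 tested smooth muscle genes, whose median was -0.086. The smooth muscle marker sum was 405 to 644 in mid-colon and 386 to 478 in rectum, and that of skeletal muscle 8.19 to 18.8 and 11.2 to 30.6, against 2125 to 14757 in anus.

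Other genes with large rises had various roles. Adamdec1, a metalloprotease-like protein of gut macrophages and stroma, was 25.8, 34, 34.9 and 34.4 in mid-colon and 47.5, 70.8, 65.7 and 67.7 in rectum, a difference of 0.94 ± 0.07 (SE, n = 4 mice, limma, adjusted p = 0.00907). Adamts15, a secreted protease that cleaves proteoglycans, was 8.02, 9.03, 7.95 and 4.18 in mid-colon and 18.5, 14, 14.2 and 10.6 in rectum, a difference of 0.91 ± 0.12 (SE, n = 4 mice, limma, adjusted p = 0.0313). Itpripl2 was 9.15, 10.1, 12.6 and 8.69 in mid-colon and 21, 21.9, 21 and 20.2 in rectum, a difference of 1.00 ± 0.10 (SE, n = 4 mice, limma, adjusted p = 0.0174). The rectum samples of all 3 genes lay above all mid-colon samples.

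Cps1, the entry enzyme of the urea cycle, was 2.3, 2.5, 2.03 and 2.14 in mid-colon and 4.6, 6.43, 5.32 and 4.95 in rectum, a difference of 0.96 (limma, adjusted p = 0.0217). Defb45, a beta-defensin, was 12.4, 12.9, 16.8 and 11.3 in mid-colon and 20.9, 29.5, 35.7 and 25.8 in rectum, a difference of 1.00 ± 0.10 (SE, n = 4 mice, limma, adjusted p = 0.0163). Gnai1, an inhibitory G protein subunit, differed by 0.90 (limma, adjusted p = 0.0279), and Mboat2, a lysophospholipid acyltransferase, by 0.89 (limma, adjusted p = 0.0291). None of these 4 genes overlapped between the groups.

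A pair of proliferation genes was higher in rectum. Of 15 tested (15 listed), 2 were higher and 0 lower, 13 were positive and the median was 0.344. Ube2c, which ubiquitinates mitotic targets, was 13.6, 15.5, 14.8 and 7.71 in mid-colon and 21.6, 22.3, 23.1 and 17.4 in rectum, a difference of 0.70 (limma, adjusted p = 0.0434). Cdk1, the mitotic kinase, was 15.7, 14.4, 18.1 and 14.1 in mid-colon and 21.3, 21.2, 26.8 and 19.2 in rectum, a difference of 0.48 (limma, adjusted p = 0.0415). The mid-colon of mouse 4 was the lowest sample for both. Top2a and Birc5, also genes of dividing cells, missed the threshold at 0.54 (limma, adjusted p = 0.0578) and 0.53 (limma, adjusted p = 0.0571). The 13 tested crypt stem cell genes had 0 calls, where 1.35% of all genes tested were called, and a median of 0.189. Neither proliferation call passed without the mouse block or in any fit of 3 mice. On TPM as deposited, where 294 of all 12037 genes were called higher and 55 lower, 5 members were called.

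In the list of epithelial defence genes, 2 of 14 tested (20 listed) were called lower and 0 higher, with a median of -0.219. Over all genes tested 0.806% were called lower. Defb45 and Lyz1, described above and outside that list, were called higher. Ccl6, a chemokine, was 204, 236, 232 and 343 in mid-colon and 128, 119, 134 and 169 in rectum, a difference of -0.87 ± 0.09 (SE, n = 4 mice, limma, adjusted p = 0.0166), with no overlap. Nlrp6, an inflammasome sensor of the colonic epithelium, differed by -0.62 (limma, adjusted p = 0.031). The 14 tested interferon-stimulated genes (18 listed) all had a negative difference, with a median of -0.341, and 1 was called. It was Oasl2, at 30.3, 13.9, 14.9 and 9.41 in mid-colon and 17.1, 5.95, 6.31 and 7.07 in rectum, a difference of -0.84 (limma, adjusted p = 0.0494). Its groups overlapped because mouse 1 was high in both sections. With deposited TPM 0 interferon-stimulated genes were called and the median was -0.172.

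Some metabolic enzymes were called lower in rectum. Of 35 tested cytochrome P450 and conjugation genes (44 listed), 3 were lower and 0 higher, with a median of -0.254. Over all genes tested 0.806% were called lower and 0.548% higher. On TPM as deposited, where 294 of all 12037 genes were called higher and 55 lower, 4 members were higher and 1 lower. Cyp2d9, of a family of close copies, was 37.8, 54.4, 51.3 and 81.5 in mid-colon and 19.3, 26.4, 27 and 31.2 in rectum, a difference of -1.05 ± 0.10 (SE, n = 4 mice, limma, adjusted p = 0.0147). Sult1a1, a phenol sulfotransferase, differed by -0.55 (limma, adjusted p = 0.031), and Ugt1a7c, a glucuronosyltransferase that shares exons with its neighbours, by -0.53 (limma, adjusted p = 0.0405). Hsd3b3, a steroid dehydrogenase with close relatives, was 71.5, 61, 68 and 106 in mid-colon and 31.5, 28.5, 36.9 and 44 in rectum, a difference of -1.09 ± 0.09 (SE, n = 4 mice, limma, adjusted p = 0.00907). Both Cyp2d9 and Hsd3b3 had every rectum below every mid-colon. The split of reads among such near-identical genes is uncertain.

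Of 20 tested genes of ketogenesis, fatty acid oxidation and bile acid handling (26 listed), 1 was lower, 18 had a negative difference, and the median was -0.173. It was Hao2, a peroxisomal hydroxyacid oxidase, at 183, 149, 122 and 184 in mid-colon and 78.7, 70.6, 69.9 and 98.1 in rectum, a difference of -0.99 ± 0.09 (SE, n = 4 mice, limma, adjusted p = 0.0141). Hadha, a mitochondrial beta-oxidation enzyme, differed by -0.39 (limma, adjusted p = 0.0636). The list's median was 0.0508 on TPM as deposited. Elovl6, a fatty acid elongase, was the call among 24 tested lipid synthesis genes, at -0.66 (limma, adjusted p = 0.0291). Mgat4c, of a family of N-glycan branching enzymes, was 18.4, 18.3, 20.0 and 42.8 in mid-colon and 5.62, 9.69, 11.4 and 19.6 in rectum, a difference of -1.06 ± 0.14 (SE, n = 4 mice, limma, adjusted p = 0.031). The rectum of mouse 4 overlapped the mid-colon of the other mice, and its own mid-colon was the highest sample.

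The same difference was then measured in the 15 mice that had got DSS, as the mean over injury and recovery from day 3 to day 20. Of 12150 genes tested there, 3485 were called (28.7%), 1856 higher in rectum (15.3%) and 1629 lower (13.4%). On TPM as deposited 5007 were called, 4559 higher and 448 lower. Of the 66 genes higher in healthy rectum, 61 were tested, 52 had the same direction (50.1% of all genes were positive), 41 were called in it and 0 against it. Of the 97 lower genes, 96 were tested, 84 had the same direction (49.9% of all genes were negative), 65 were called in it and 2 against it. The median difference of the tested genes was 0.449 for the first set, against 0.757 at day 0, and -0.5 for the second, against -0.718. These day 0 medians belong to genes chosen by the day 0 test. By day, 3, 6, 9, 14 and 20 in turn, the higher genes kept their direction at 42 of 62, 55 of 59, 47 of 62, 54 of 64 and 53 of 65, and the lower genes at 86 of 97, 80 of 95, 75 of 93, 81 of 95 and 76 of 95. Of all genes on those days, 49.8%, 49.3%, 46.1%, 51.5% and 51% were positive. The negative shares were 50.2%, 50.7%, 53.9%, 48.5% and 49%. Within single days of 3 mice, calls over all genes numbered 15 (0.125%), 113 (0.95%), 1821 (14.3%), 0 (0%) and 2 (0.0159%). The pooled count was 2282 without day 9 and 181 without the mouse as a block.

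Several epithelial genes that were lower in healthy rectum were lower again. Slc9a3 differed by -0.85 (limma, adjusted p = 0.000295) and was lower in 14 of 15 mice, and Cdx2 differed by -0.59 (limma, adjusted p = 0.0018). Slc30a10 differed by -1.21 (limma, adjusted p = 5.07e-05), Dpep1 by -0.94 (limma, adjusted p = 5.07e-05) and Hsd3b3 by -1.14 (limma, adjusted p = 1.7e-06), and each was lower in the rectum of 15 of 15 mice. Foxd2, at -0.94 (limma, adjusted p = 6.02e-06), and Cyp2d9, at -0.97 (limma, adjusted p = 4.23e-06), were also lower in all 15. Insl5 differed by -0.77 (limma, adjusted p = 0.00357). Of the 22 goblet cell genes tested, 18 were lower and 0 higher, with a median of -0.571. Among them Zg16 differed by -0.93 (limma, adjusted p = 9.57e-06), Clca1 by -0.81 (limma, adjusted p = 0.000319) and Klk1 by -0.91 (limma, adjusted p = 2.99e-05), each lower in 15 of 15.

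Of the genes higher in healthy rectum, Itpripl2 differed by 1.21 (limma, adjusted p = 1.24e-06) and Adamts15 by 0.69 (limma, adjusted p = 0.000329), both higher in 15 of 15 mice. Lyz1 differed by 0.79 (limma, adjusted p = 0.00154). Class II genes were higher at 7 of 9 tested, with a median of 0.636. In these injured mice other immune lists were also higher, macrophage genes at 16 of 18 and neutrophil and acute inflammation genes at 13 of 14, so the class II values stand beside a broad shift whose part was not tested. Ly6d differed by 1.45 (limma, adjusted p = 0.00157) and Krt13, which was not called at day 0, by 1.85 (limma, adjusted p = 0.00575). By day, Krt13 differed by 0.22 at day 6 and by 4.06 at day 14. Krt14 differed by 3.36, 4.51 and 3.39 at days 9, 14 and 20, against 1.42 at day 0. The mice of days 9, 14 and 20 also gave a section labelled neo-epithelium, and the part of such tissue in these values was not tested. Psca and Ppbp did not pass the filter there, with rectal medians of 0.968 and 10.7 and mid-colon medians of 0.255 and 0.559, and the rectum was higher in 12 and 13 of 15 mice.

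Other genes were not called over the 15 later mice. Scnn1g differed by 0.34 (limma, adjusted p = 0.21), Ggt1 by -0.02 (limma, adjusted p = 0.93) and Adamdec1 by -0.02 (limma, adjusted p = 0.904). The Scnn1g value averages over both signs. Its day 3 mice gave 0.36, with the rectum higher in 2 of 3. Day 6 gave 1.15 and day 9 gave 0.88, with the rectum higher in all 3 mice of either day. Day 14 gave -0.49 and day 20 gave -0.27, with the rectum higher in 1 of 3 mice on either day. Scnn1g was called on none of these single days. Chgb, at 0.01 (limma, adjusted p = 0.955), Tph1, at -0.05 (limma, adjusted p = 0.872), and Mep1b, at -0.00 (limma, adjusted p = 0.987), were near 0 as means over the days, as were Hhip at -0.10 (limma, adjusted p = 0.379) and Cdk1 at 0.08 (limma, adjusted p = 0.727). For Tph1 that mean combines days of opposite sign, since at day 9 alone it was called higher in rectum, at 1.20 (limma, adjusted p = 0.0197), in 3 of 3 mice. Cps1 differed by -0.23 (limma, adjusted p = 0.178) and Defb45 by -0.46 (limma, adjusted p = 0.104), with the sign opposite to day 0. The 14 interferon-stimulated genes that were all negative in healthy mice contrast with a median of 0.575 over 17 tested genes of that list after DSS, of which 9 were called higher and 0 lower. The difference between healthy and injured mice was not tested for any of these genes.

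**Figure D4:**
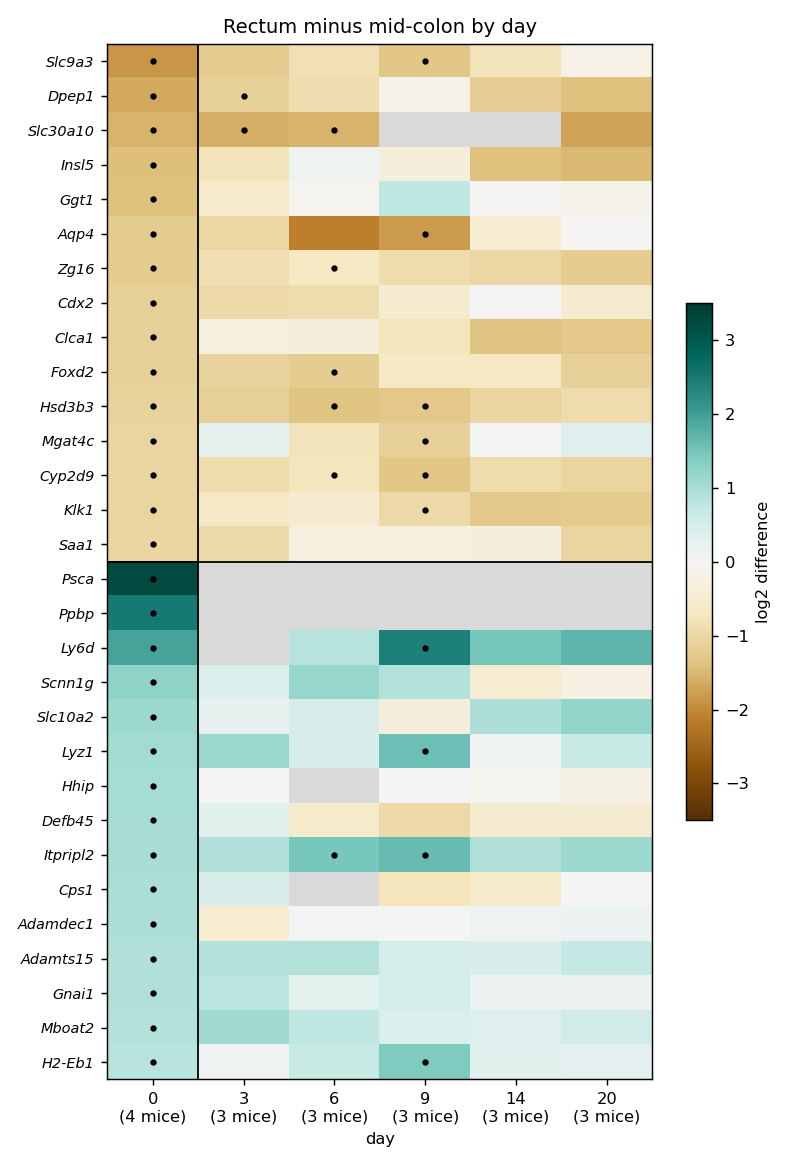
Log2 difference, rectum minus mid-colon, of the 15 named genes with the largest falls and the 15 with the largest rises at day 0, shown at day 0 (4 mice) and at days 3, 6, 9, 14 and 20 (3 mice each), as a colour scale centred on 0, with a dot where called by limma and grey where not fitted. Hsd3b3 and Zg16 are negative and Itpripl2 positive on every day.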

How the data were processed

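Sections of mid-colon, rectum and anus were profiled by stranded mRNA sequencing (single-end, 75 bp, per the labels' protocols). The authors deposited 1 table of transcript TPM, a length-adjusted abundance, which is recorded here as a signal because rows repeated for several identifiers lift the deposited column totals above the TPM total. The submitters' processing notes name CASAVA, kallisto and mm10. Their settings are not given in the sources used here.

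The 1318 repeat rows were dropped and TPM summed per gene (30452 genes). Each library was divided by an unweighted trimmed-mean factor (TMM, trimming 30% of ratios and 5% of levels), with a pseudocount of 1. limma 3.58.1 in R 4.3.3, with a trended prior and the mouse as a block, tested genes with at least 1 TPM in 4 or more of the 8 samples (15 of 30 for days 3 to 20, 3 of 6 for single days). Every adjusted p is from limma with Benjamini-Hochberg adjustment. The 2 sections of a mouse are from the same animal by the labels' mouse identifier. Their deviations from the group means correlated at 0.191, 0.0782, -0.0352 and 0.344 in mice 1 to 4, with a mean of 0.145 against -0.0484 over the 12 other pairings. The day 0 p-values rest on the spread of the within-mouse differences over these 4 mice, drawn toward a trend over all genes by the prior.

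The 33 gene lists and the genes compared were chosen with earlier results of these data known. Named genes are, in each direction, the 15 called genes with the largest difference among those with at least 5 scaled TPM in the higher section, the same direction in 4 of 4 mice and a proper symbol. Called list members (54), the most abundant list members, every tested Hox gene and markers of cell types were added, and Scnn1a, Scnn1b and Slc9a2 after their values were seen. On simulated data for the day 0 design, 82 of 100 genes changed by 1 on the log2 scale and 99 of 100 changed by 2 were recovered, with 3.72% of calls false. The changed genes were drawn only from the more abundant ones, and the noise was normal and independent between genes. No simulated library stood apart as the mid-colon of mouse 4 did. These shares therefore do not carry over to scarce genes or to data with such a library. Promoter windows, on GRCm38.p6, came from RefSeq for 47 of 66 named called genes. Read depth is unknown, so no counting interval is given. Python 3.11.15 with pandas 2.3.3, numpy 2.4.6 and matplotlib 3.10.9 did the rest.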

Additional observations from a re-analysis of the deposited data

Results flagged for a closer look

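In a group of 4 samples, a value was singled out where its gap to the nearest of the others took up more of the group's range than Dixon's critical value, which chance alone gives in about 1 in 20 groups. Of 212 groups checked (gene by section), 21 held such a sample. In 9 of them the mid-colon of mouse 4 was the high sample. Clca1 was 6584 against 4126 for the next sample, Klk1 5319 against 2848, Saa1 7266 against 2909, Mgat4c 42.8 against 20.0, Nxpe4 117 against 75.6, Ly6d 4.81 against 1.44, Lyz2 174 against 99.2, H2-Aa 86.1 against 53.6, and Krt4 0.834 against 0.117. Abcb1a (621 against 509) and Slc9a2 (125 against 115) were high in the mid-colon of mouse 3. The mid-colon of mouse 1 was low for Adamdec1 (25.8), Atp12a (333) and Hoxa5 (2.37), and that of mouse 4 for Birc5 (13.2) and Scnn1a (102). The rectum was high in mouse 4 for Aqp4 (12.4) and Reg4 (211), in mouse 3 for Cyp2c55 (1068) and S100g (539), and in mouse 1 for Oasl2 (17.1). All values are scaled TPM.

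A further 12 called genes had, on some later day, the direction opposite to that of all 4 healthy mice in all 3 mice of that day, and the difference was not tested. The mean log2 difference, rectum minus mid-colon, was 0.17 at day 6 and 0.24 at day 9 for Ccl6, -0.62 at day 3 and -0.52 at day 9 for Cdk1, and 0.65 at day 6 and 0.48 at day 9 for Chgb. Cps1 was -0.28 at day 6, -0.75 at day 9 and -0.59 at day 14, Defb45 -0.98 at day 9 and -0.52 at day 14, and Ube2c -0.41 at day 3 and -0.28 at day 9. Tph1 was 1.18 at day 9, Ggt1 0.72 at day 9, Slc10a2 -0.36 at day 9, Oasl2 0.71 at day 6, Mep1b 0.22 at day 6 and Csf1r -0.25 at day 3.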

How the results depend on the processing

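All 163 calls of the healthy mice kept their direction under every setting in which they were fitted. They were chosen from these same samples, so this is largely built in. The number called did not hold. Against 163, TPM as deposited gave 349, the fit without the replicate block 104, the fit with the anus added 11, a minimum difference of 1 on the log2(scaled TPM + 1) scale 36, and no filter on low values 0 of 20940 genes by limma (3479 at an unadjusted p under 0.05, smallest adjusted p 0.1). Leaving out 1 mouse gave 1 to 38. Fewer mice and more genes tested are part of how these fits are built, and other causes were not tested. In days 3 to 20, against 3485, the count was 5007 on deposited TPM (4559 higher, 448 lower), 181 without the block, 86 with days 3 and 20 only, 2282 without day 9, and 2282 to 3774 over all fits that leave out a mouse or a day. At day 3, against 15, deposited TPM gave 104, no block 6, and leaving out a mouse 2 to 41. At day 6, against 113, these were 363, 1, and 2 to 245. Leaving out a mouse gave 572 to 1852 at day 9 (1821), 0 to 389 at day 14 (0, with 2742 genes at an unadjusted p under 0.05) and 5 to 39 at day 20 (2). Among named genes 5 uncalled ones changed sign. Hnf4a was 0.0172, Scnn1a 0.0999, Hoxa9 0.197 and Hoxb13 0.133 on deposited TPM, with or without the block. Hoxa9 was also 0.0093 with a minimum of 5 TPM and -0.138 to 0.0349 over the fits of 3 mice (0.0296 without mouse 4), and Hoxb9 was -0.0240 (without mouse 4) to 0.0771. Pseudocounts of 0.1 and 5, median-of-ratios factors, leaving out mitochondrial genes and a prior without trend gave 133 to 183 calls.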

Other observations

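Tuft cell, claudin, vitamin D and endothelial genes were not described above. None of the 8 tuft cell, 11 claudin, 5 vitamin D and calcium or 12 endothelial genes tested was called by limma in the healthy mice. With 1.35% of all genes called, few calls would be due in these lists. Their median differences were -0.178, -0.0102, -0.226 and 0.243. The summed level of 4 markers of the anorectal transition zone was 409.7, 385, 321 and 484 in the mid-colon of mice 1 to 4, 509, 477, 411 and 431 in their rectum, and 1138 to 1689 in their anus. Most of that sum was Anxa8, at 326, 294, 243 and 401 in mid-colon and 443, 395, 324 and 374 in rectum. Krt7 was lower in the rectum of mice 1, 2 and 4, at 82.9, 90.9, 78.4 and 82.2 in mid-colon and 64.8, 81.8, 85.0 and 56.8 in rectum.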
